A study of Mus musculus with 6 samples.

Results

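Solute carrier (Slc) genes encode membrane proteins that move small molecules across cellular membranes, and their expression was followed here while mouse bone marrow cells became dendritic cells (DC) in culture. A gene was included if its platform symbol began with Slc and a digit, and the brightest probe stood for each gene. A group of 8 such genes for glucose, lactate and cystine or large neutral amino acid transport (Slc2a1, Slc2a3, Slc2a6, Slc16a1, Slc16a3, Slc7a5, Slc7a11 and Slc3a2) was left out. Of the 349 remaining Slc symbols with a probe, 154 had a signal above background (detection p under 0.01) on at least 2 of the 6 arrays and make up the set, among 9221 genes that passed the same filter. The other 195 Slc genes did not pass it. At the edge of the filter, 12 members were detected on exactly 2 arrays, with highest log2 values between 5.48 and 6.66. The 14 genes detected on 1 array reached 5.47 to 6.06, and 181 were detected on none. Although they carry the prefix, Slc7a6os, Slc9a3r1, Slc9a3r2 and Slc4a1ap are not transporters by name and were kept, as the rule sets, under the family number they bear.

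The study asked how blocking the kinase p38 in DC progenitors changes the DC that arise. Marrow cells of C57BL/6 mice grew with GM-CSF (20 ng/ml), a cytokine that drives myeloid progenitors towards DC, and every culture held either SB202190, a p38 inhibitor given in the labels as 1.5 mM (a unit not checked here), or its solvent DMSO at 0.1%. The pre-DC were the cells after 2 days, the immature DC were the semi-adherent fraction of day 7, and the mature DC had received TNF-a and IL-1b (10 ng/ml each) for another 48 h. Each of the 6 combinations of stage and treatment had 1 Illumina bead array, so that a stage had 2 arrays and a treatment 3. These are bulk cultures without a purification step in the labels, and the labels do not say whether the arrays came from separate animals or cultures. The p-values below therefore measure only the spread between these arrays, which may be technical. As the 2 arrays of a stage differ in treatment, that spread also holds any effect of SB202190 that differs between stages.

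Transporters of the Slc families act as uniporters, symporters and antiporters, and many use a sodium or proton gradient. In myeloid cells they feed arginine to its metabolising enzymes, move iron, zinc and copper in and out of the cytosol and the phagosome, export digested material from the lysosome and connect mitochondria to the cytosol through the Slc25 family. Each substrate class is described in turn below, with the genes that act on the same substrate beside it.

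Between 14623 and 15328 probes and between 134 and 145 of the 154 members were detected per array, with the fewest of both on the mature DC array with SB202190. All 6 arrays gave a signal for 121 members. Values are normalized log2 intensities, so 1 unit is a doubling, and they compare arrays for one probe and not one gene with another. Among the DC markers, Itgax was below background on both pre-DC arrays and detected on the other 4, H2-Ab1 was detected on all 6, Cd209a was below background in mature DC, and Flt3 was detected on none. Ccr7 read 5.86 and 4.95 in pre-DC, 10.0 and 10.74 in immature DC and 11.33 and 12.09 in mature DC. Zbtb46 read 5.44 and 6.49, then 7.20 and 7.97, then 7.58 and 7.85. The 6 DC markers, with H2-Ab1 the brightest, summed to normalized intensities of 12570 and 17910 in pre-DC, 34800 and 39460 in immature DC and 36920 and 38970 in mature DC. The cell mixture also moved with the stage. Neutrophil markers, of which 7 of 8 were detected (Mmp8 was not), summed to normalized intensities of 197300 and 204900 in pre-DC, 41320 and 53770 in immature DC and 15480 and 15840 in mature DC. Macrophage markers, all 5 of those measured, summed to between 2262 and 2461 in pre-DC, between 19250 and 19930 in immature DC and between 10240 and 12360 in mature DC. Their part in the differences between stages was not tested, and in bulk samples fewer cells of a type and less RNA per cell cannot be told apart.

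The upstream sequences of 4 members are shown because these genes carry the patterns described below. Slc27a3 had the greatest rise into the immature stage, Slc46a3 was highest in immature DC, and Slc11a1 and Slc6a13 were lowest there. The sequences are the 250 bases before the RefSeq start site on GRCm38.p6, read 5′ to 3′ on the strand of the gene. They lie at chr3:90389939-90390188 on the minus strand for Slc27a3, at chr5:147894816-147895065 on the minus strand for Slc46a3, at chr1:74374953-74375202 on the plus strand for Slc11a1 and at chr6:121300038-121300287 on the plus strand for Slc6a13, the first of 3 starts listed for it. Capitals mark matches to a motif.
Slc27a3: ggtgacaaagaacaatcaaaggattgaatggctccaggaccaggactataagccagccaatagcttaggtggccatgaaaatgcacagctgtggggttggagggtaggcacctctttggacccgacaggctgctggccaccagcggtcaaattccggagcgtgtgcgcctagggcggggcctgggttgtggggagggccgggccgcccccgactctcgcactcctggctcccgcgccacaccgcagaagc
Slc46a3: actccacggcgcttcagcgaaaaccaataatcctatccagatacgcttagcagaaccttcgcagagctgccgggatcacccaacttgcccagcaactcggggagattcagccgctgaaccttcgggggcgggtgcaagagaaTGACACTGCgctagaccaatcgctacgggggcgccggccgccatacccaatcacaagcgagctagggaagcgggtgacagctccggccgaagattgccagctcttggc
Slc11a1: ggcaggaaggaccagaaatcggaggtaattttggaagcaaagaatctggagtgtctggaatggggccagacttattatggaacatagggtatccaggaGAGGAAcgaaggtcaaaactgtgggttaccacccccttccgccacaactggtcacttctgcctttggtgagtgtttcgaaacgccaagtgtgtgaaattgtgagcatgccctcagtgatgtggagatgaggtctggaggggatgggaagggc
Slc6a13: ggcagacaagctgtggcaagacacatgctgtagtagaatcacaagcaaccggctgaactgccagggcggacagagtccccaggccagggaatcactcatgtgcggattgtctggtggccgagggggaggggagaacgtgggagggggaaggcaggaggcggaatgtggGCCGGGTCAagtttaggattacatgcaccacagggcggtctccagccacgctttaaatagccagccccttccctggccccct
The 5 motifs searched on both strands were GAGGAA (the core bound by PU.1), TGANTCA (AP-1), CACGTG (E-box), TGACNNNGC (antioxidant response element, ARE) and the NF-kB consensus. Slc11a1 had the PU.1 core 152 bases before the start, Slc46a3 an ARE match 108 bases before it and Slc6a13 an ARE match on the opposite strand 82 bases before it, while Slc27a3 had no match in this window. Of 32851 mouse promoters in the same table, 23.3% held the PU.1 core and 10.2% the ARE letters. For the 166 promoters of members those shares were 18.1% and 15.7%, and 13.3% held CACGTG against 6.02% of all promoters. A match is a stretch of letters and not a known binding site. Promoter entries were found for 123 of the 154 members, without Slc40a1, Slc39a4 and Slc7a2.

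The first comparison asks how transporter expression differed between immature DC and pre-DC. Among the largest rises were those of Slc27a3 and Slc27a1, which act on fatty acids, Slc22a23, an organic ion family member without a settled substrate, Slc7a2, which carries arginine, Slc4a8, a sodium-driven chloride and bicarbonate exchanger, and Slc6a4, the serotonin transporter. The largest falls were those of Slc40a1, the iron exporter ferroportin, Slc17a9, the vesicular nucleotide transporter, and Slc39a4, a zinc importer. Of the 154 members, 44 were higher in immature DC and 37 lower at an adjusted p of 0.05 (limma, 4 arrays in the contrast, p-values adjusted over all 9221 genes). This stage difference reached 51% of all genes tested, 25.6% higher and 25.5% lower, and the share of members called was 52.6%. The median log2 difference was 0.03 over the members and 0.0016 over all genes, and the members' median became -0.06 without the pre-DC DMSO array. Differences of at least 2-fold among the called genes were found for 22 members upwards (14.3%, against 12% of all genes) and for 13 downwards (8.44%, against 10%). Without the immature DC SB202190 array, 27 members were called higher and 21 lower, and 14.8% and 13.3% of all genes. Of the members called, 6 (Slc28a2, Slc28a2b, Slc39a8, Slc43a1, Slc9a9 and Slc39a12) were detected on the 2 arrays of the stage where they were high and on no other. They had to differ to enter the set, so they are described without a p-value. Among the 20 members with the largest differences, Slc28a2b had to differ to enter the set, so its call is not counted here. The others kept their call under every alternative that measured them, the loss of any single array included. Their size moved more: of 32 first-step differences recomputed, 17 changed by over 1.5-fold without background correction and 9 with the mean of all probes of a gene, and none of these changed sign.

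The second comparison asks how transporters differed after maturation with TNF-a and IL-1b. It shares the immature DC arrays with the first comparison, so the differences of one gene at the 2 steps are not independent and are given only side by side. Among the members, Slc7a2 had the largest rise, followed by Slc6a12 and Slc11a1, a betaine and GABA transporter and a phagosomal metal transporter. Slc46a3, a lysosomal membrane protein, and Slc6a4 had the largest falls. In all, 19 members were higher in mature DC and 23 lower, which is 27.3% of the members where 21.6% of all genes were called (10.5% higher, 11.1% lower). The median was -0.06 over the members and -0.01 over all genes. The counts of members and of all genes both fell when 1 array of the step was left out. Without the immature DC DMSO array 5 members were higher and 5 lower (2.68% and 3.56% of all genes), and without the immature DC SB202190 array 7 and 6 (3.59% and 5.12%). Without the mature DC DMSO array they were 7 and 11 (4.24% and 5.29%), and without the mature DC SB202190 array 8 and 5 (3.44% and 4.13%). Of the members called, 4 (Slc1a2, Slc30a9, Slc9a9 and Slc39a12) were detected in 1 stage alone, the stage where they were high. Of the 20 members named with the largest differences, 10 (Slc7a2, Slc6a12, Slc11a1, Slc25a37, Slc6a13, Slc46a3, Slc6a4, Slc40a1, Slc35c2 and Slc9a9) kept their call in every alternative that measured them. The other 10 lost it without at least 1 array. Slc9a9 had to be high in immature DC to enter the set, so its kept call is no support.

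**Figure D1:**
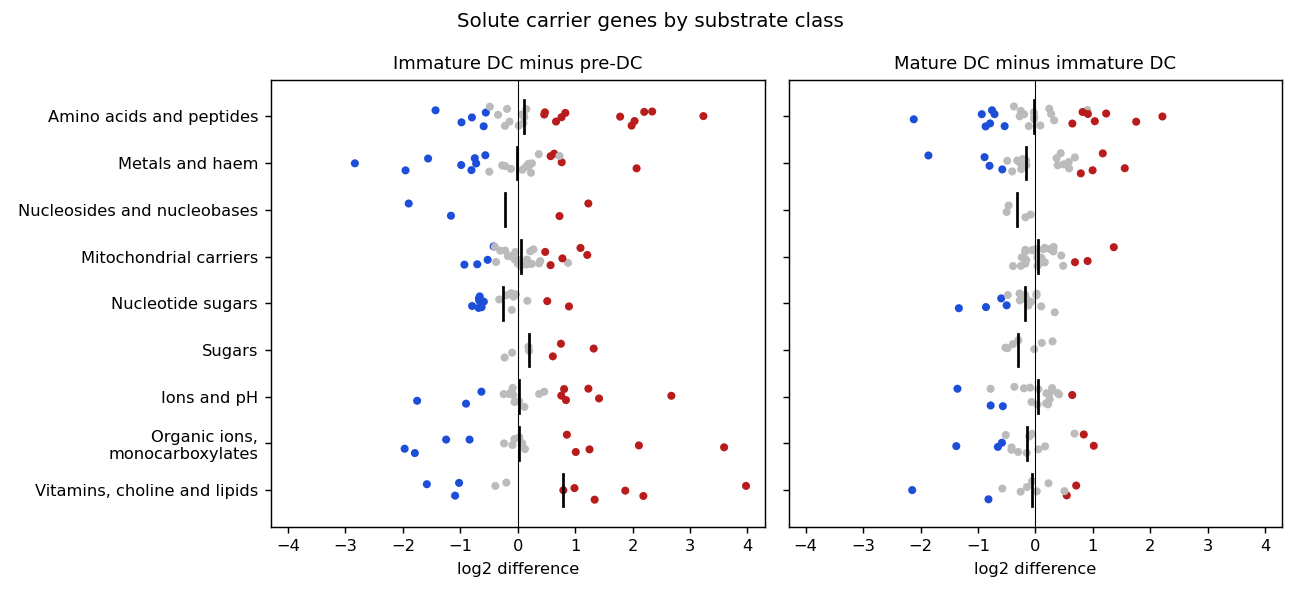
Log2 differences of the members, one point per gene, for immature DC minus pre-DC (left) and mature DC minus immature DC (right), grouped on the vertical axis by substrate class. Red points were called higher, blue points lower and grey points not called (limma, adjusted p of 0.05), black bars are class medians, and Slc14a1 is left out. Calls in both directions are seen in both panels, with fewer on the right.

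Amino acid and peptide carriers made up 27 members, of which 11 rose and 5 fell into the immature stage and 7 rose and 7 fell on maturation. The called shares were 59.3% and 51.9% of the class, against 51% and 21.6% of all genes. Slc7a2, the cationic amino acid transporter that supplies arginine to activated mouse macrophages, read 6.04 with DMSO and 5.45 with SB202190 in pre-DC. It read 9.22 and 8.74 in immature DC and 11.23 and 11.14 in mature DC. No pair of stages overlapped, and the gene rose at both steps. The differences were 3.23 (SE 0.16, adjusted p = 0.000168) and 2.21 (SE 0.16, adjusted p = 0.00182). The other detected probes of Slc7a2 gave 0.66 and 1.92 at the first step and 1.68 and 2.24 at the second, and the mean of all its probes gave 1.30 and 1.27, so the size depends on the probe. Slc7a7, the light chain of a heteromer that exchanges cationic for neutral amino acids, rose from 6.65 and 6.69 to 8.39 and 9.02 in immature DC and read 8.31 and 8.87 in mature DC. The first step gave 2.04 (SE 0.18, adjusted p = 0.000684) and the second, which was not called, -0.12 (SE 0.18, adjusted p = 0.686).

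Slc6a4, which takes up serotonin, behaved otherwise. It read 6.53 and 6.29 in pre-DC, 8.90 and 8.61 in immature DC and 6.86 and 6.41 in mature DC, so that both immature DC arrays lay above the other 4. The differences were 2.34 (SE 0.13, adjusted p = 0.000212) and -2.12 (SE 0.13, adjusted p = 0.00123). Slc6a8, the creatine transporter, read 5.98 and 5.47, then 7.85 and 8.0, then 9.05 and 8.63, a rise of 2.20 (SE 0.19, adjusted p = 0.000657) and one of 0.91 (SE 0.19, adjusted p = 0.0262). The second of these was lost without the immature DC DMSO array or either mature DC array.

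Slc6a13 and Slc6a12 are neighbouring genes on chromosome 6 that both carry GABA, and Slc6a12 also carries the osmolyte betaine. Slc6a13 read 9.93 and 9.65 in pre-DC, 8.57 and 8.15 in immature DC and 9.89 and 9.29 in mature DC. The immature DC arrays were the lowest for this gene, with a difference of -1.43 (SE 0.14, adjusted p = 0.000864) and then one of 1.23 (SE 0.14, adjusted p = 0.00464). Slc6a12 read 9.40 and 9.15, then 9.52 and 9.17, then 11.36 and 10.84. It rose with maturation by 1.75 (SE 0.13, adjusted p = 0.002) and its first step gave 0.07 (SE 0.13, adjusted p = 0.676).

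Among carriers of neutral amino acids, Slc1a4 was below background on both pre-DC arrays (5.16 and 4.93) and read 6.61 and 7.44 in immature DC. This is a rise of at least 3.01-fold (adjusted p = 0.00224), in which a bound is used because the dim side was not measured above background. Slc1a5, the glutamine carrier ASCT2, fell at both steps, by 0.55 (SE 0.13, adjusted p = 0.0146) and then by at least 1.49-fold to below background in mature DC (adjusted p = 0.0077). The second-step call of Slc1a5 was lost without either immature DC array or the mature DC SB202190 array. Slc1a2, a glutamate transporter, was detected only in mature DC, at 6.00 and 6.24, at least 1.60-fold above immature DC, and it entered the set through those 2 arrays. Slc7a8, which carries large and small neutral amino acids, read 8.37 and 8.53, then 8.71 and 8.42, then 9.48 and 9.29. Its rise with maturation of 0.82 (SE 0.16, adjusted p = 0.0198) was lost without any single one of the 4 arrays of that step. Slc38a1, a sodium-coupled glutamine carrier, fell at both steps, by 0.80 (SE 0.13, adjusted p = 0.00458) and by 0.54 (SE 0.13, adjusted p = 0.0381). Its neighbour Slc38a2 was not called at either, with -0.14 and 0.32. Another detected probe of Slc38a1 gave -1.04 and -0.14, and another of Slc38a2 gave -0.77 and 0.35, so the contrast between them depends on the probe.

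Carriers of the lysosome were found on both sides. Slc15a3, which exports peptides and histidine from endolysosomes, rose from 10.67 and 10.61 to 12.18 and 12.67 (1.78, SE 0.17, adjusted p = 0.000844). On maturation it read 13.04 and 13.09, a rise of 0.64 (SE 0.17, adjusted p = 0.049) that was lost without any single array of that step, without the treatment term (adjusted p = 0.0514) and without the detection filter (adjusted p = 0.0784). Slc38a9, the lysosomal arginine sensor that signals to the kinase complex mTORC1, rose from 6.48 and 6.83 to 7.47 and 7.49 (0.83, SE 0.14, adjusted p = 0.00502), and Slc38a7, which exports glutamine from lysosomes, by 0.76 (SE 0.19, adjusted p = 0.0182). In mature DC, Slc36a1, a proton-coupled exporter of small amino acids, fell by 0.79 (SE 0.18, adjusted p = 0.033), Slc66a1, which exports cationic amino acids, by 0.76 (SE 0.19, adjusted p = 0.0444), and Slc66a2 by 0.87 (SE 0.15, adjusted p = 0.0158). The call of Slc66a2 was lost with the mean of all probes (adjusted p = 0.142) and without either immature DC array or the mature DC SB202190 array.

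Of 17 listed genes for amino acid sensing by mTORC1 at the lysosome, 13 were tested, and 4 were higher and 1 lower in immature DC. Of all genes, 51% were called at that step and 21.6% on maturation. Castor1, the cytosolic arginine sensor, read 5.99 and 6.29, then 8.11 and 8.64, then 9.64 and 9.89. It rose at both steps, by 2.23 (SE 0.14, adjusted p = 0.000266) and 1.39 (SE 0.14, adjusted p = 0.00329), and it was the single gene of the list called on maturation. Rptor, the scaffold of mTORC1, rose by 0.96 (SE 0.16, adjusted p = 0.00499), and the leucine sensor Sesn2 by 0.82 (SE 0.13, adjusted p = 0.00455). Lamtor4, a subunit of the lysosomal anchor, fell by 0.90 (SE 0.18, adjusted p = 0.00921).

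**Figure D2:**
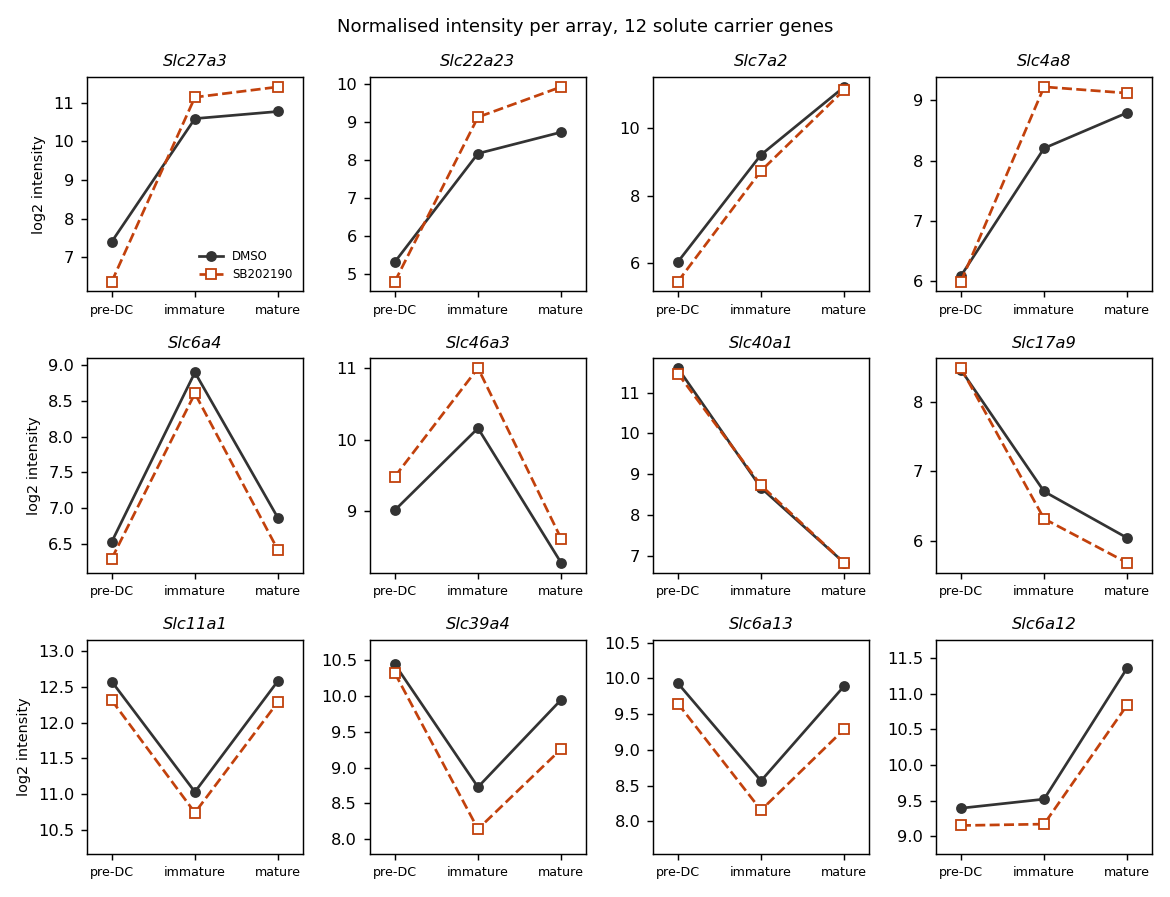
Normalized log2 intensity (vertical axes, whose spans differ) of 12 members at the 3 stages (horizontal axis), 1 point per array. Black circles are DMSO and orange open squares with dashed lines SB202190. Slc27a3, Slc22a23, Slc7a2 and Slc4a8 are low in pre-DC, Slc40a1 falls at each stage, Slc6a4 and Slc46a3 peak in immature DC, and Slc11a1, Slc39a4 and Slc6a13 are lowest there.

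Metal and haem transporters made up 24 members, with 4 higher and 8 lower in immature DC and 4 higher and 4 lower after maturation. These are 50% and 33.3% of the class, where 51% and 21.6% of all genes were called. Slc40a1, the ferroportin that exports iron from cells, read 11.60 and 11.47 in pre-DC, 8.67 and 8.73 in immature DC and 6.84 and 6.84 in mature DC. The stages did not overlap, and the arrays of a stage lay within 0.13 of each other on the log2 scale. It fell by 2.83 (SE 0.13, adjusted p = 0.000133) and then fell by 1.86 (SE 0.13, adjusted p = 0.0015). With the mean of all its probes the differences were -1.46 and -0.92. Slc11a1 (NRAMP1) pumps iron and manganese out of the phagosome, and the C57BL/6 strain is known to carry a loss-of-function allele of it. It read 12.58 and 12.31 in pre-DC, 11.03 and 10.74 in immature DC and 12.59 and 12.29 in mature DC. The immature DC arrays were thus the lowest, with a difference of -1.56 (SE 0.12, adjusted p = 0.000475) and then one of 1.55 (SE 0.12, adjusted p = 0.00205). Its relative Slc11a2 (DMT1), the proton-coupled iron importer, rose by 0.57 (SE 0.16, adjusted p = 0.0272) at the first step and gave 0.58 (SE 0.16, adjusted p = 0.0515) at the second. Another detected probe of Slc11a2 went the opposite way at the first step, with -1.16, so its direction depends on the probe.

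Of 17 listed genes for iron and haem handling, 14 were tested, of which 3 were higher and 5 lower in immature DC and 3 higher and 2 lower in mature DC. Steap3, detected in immature DC alone, is counted as higher and then as lower. Of all genes, 51% and 21.6% were called at the 2 steps. Tfrc, the transferrin receptor, read 11.78 and 11.47 in pre-DC, 9.18 and 9.68 in immature DC and 9.09 and 9.51 in mature DC, a difference of -2.19 (SE 0.22, adjusted p = 0.000969) at the first step. Hfe, which binds that receptor, rose by 2.04 (SE 0.16, adjusted p = 0.000475) and then fell by 0.61 (SE 0.16, adjusted p = 0.0447). Lcn2, a siderophore-binding granule protein of neutrophils, fell by 3.29 (SE 0.21, adjusted p = 0.000313). With maturation, Hmox1, the enzyme that breaks down haem, rose by 1.61 (SE 0.14, adjusted p = 0.00256), and Cp, the ferroxidase ceruloplasmin, rose by at least 2.14-fold from below background (adjusted p = 0.00371). The ferritin genes Fth1 and Ftl1 were called at neither step. Erythroid markers, of which 6 of 10 were measured and Klf1, Car1 and Epb42 never detected, summed to 2842 and 3334 in pre-DC and to between 153.1 and 189.3 on the other 4 arrays. Most of the pre-DC sum came from Hba-a1, at 11.62 with DMSO and 11.39 with SB202190. Alas2 was detected on 1 array, and Epor read 5.24 and 5.54 in pre-DC and 5.24 and 5.63 in immature DC. Together with the neutrophil sums given above, the erythroid sums moved with the falls of Slc40a1, Tfrc and Lcn2, and their part in these was not tested.

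**Figure D3:**
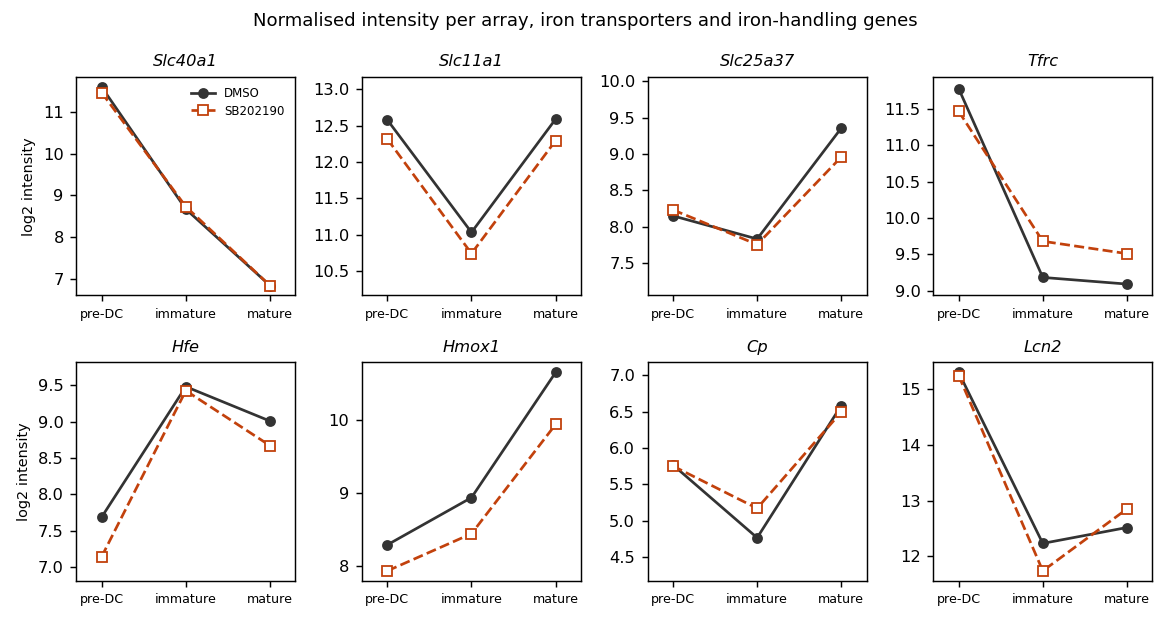
Normalized log2 intensity (vertical axes, spans differ) of 3 iron transporter members (Slc40a1, Slc11a1 and Slc25a37) and 5 iron and haem genes (Tfrc, Hfe, Hmox1, Cp and Lcn2) at the 3 stages, 1 point per array, with black circles for DMSO and orange open squares for SB202190. Slc40a1 falls at both steps, Tfrc and Lcn2 fall at the first, and Hmox1, Cp and Slc25a37 are highest in mature DC.

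Zinc enters the cytosol through the Slc39 (ZIP) family and leaves it through the Slc30 (ZnT) family. Slc39a4 read 10.45 and 10.32 in pre-DC, 8.73 and 8.14 in immature DC and 9.95 and 9.26 in mature DC. It fell by 1.95 (SE 0.18, adjusted p = 0.000692) and then rose by 1.17 (SE 0.18, adjusted p = 0.00988), which was lost without either immature DC array or the mature DC DMSO array. Another detected probe of Slc39a4 gave -0.48 and 0.56. Slc39a6 and Slc39a7, which import zinc at the plasma membrane and release it from the endoplasmic reticulum, fell at the first step by 0.98 (SE 0.14, adjusted p = 0.00279) and 0.75 (SE 0.12, adjusted p = 0.00451). Slc30a5 and Slc30a6, which act as a pair in the early secretory pathway, fell by 0.72 (SE 0.15, adjusted p = 0.00955) and 0.56 (SE 0.14, adjusted p = 0.0207). Slc39a1 rose by 0.64 (SE 0.20, adjusted p = 0.0405). Slc39a8 was above background in pre-DC alone, at least 1.22-fold above immature DC, and Slc39a12 in immature DC alone.

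On maturation, Slc30a1, the zinc exporter of the plasma membrane, read 6.43 and 5.81 after 7.06 and 6.95, a difference of -0.89 (SE 0.19, adjusted p = 0.0262) that was lost without either immature DC array or the mature DC SB202190 array. Slc31a2, a low-affinity copper transporter, read 8.61 and 8.13 after 7.50 and 7.25, a rise of 0.99 (SE 0.25, adjusted p = 0.0435) that was lost without any single array of the step and without the detection filter. Its neighbour Slc31a1, the main copper importer, was not called (0.37, SE 0.15, adjusted p = 0.135). Slc41a2, a magnesium transporter, rose into the immature stage from 6.18 and 5.77 to 7.89 and 8.20 (2.07, SE 0.20, adjusted p = 0.000885).

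All 8 listed genes for zinc and copper handling were tested, with 5 higher and 1 lower in immature DC and 1 higher and 1 lower in mature DC. For all genes the shares called were 51% and 21.6%. The metallothionein genes encode small proteins that hold zinc and copper. Mt1 read 13.39 and 13.38 in pre-DC and 14.44 and 14.31 in immature DC (0.99, SE 0.14, adjusted p = 0.00257). Mt2 read 6.27 and 5.63 in immature DC and 7.71 and 7.17 in mature DC (1.49, SE 0.15, adjusted p = 0.00361). Mtf1, the zinc-sensing factor that drives both, fell by 0.60 (SE 0.13, adjusted p = 0.0119) and by 1.02 (SE 0.13, adjusted p = 0.00598). Atp7a, the copper-exporting ATPase, was higher in immature DC, at 7.90 and 7.76 against 6.65 and 6.68 (SE of the difference 0.13, adjusted p = 0.00128).

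Only 4 members carry nucleosides or nucleobases. At the first step, where 51% of all genes were called, 2 were called higher and 2 lower. Slc29a3, the equilibrative carrier of lysosomes, read 9.57 and 9.67 in pre-DC, 10.88 and 10.82 in immature DC and 10.32 and 10.44 in mature DC (first step 1.23, SE 0.13, adjusted p = 0.00105). Slc29a1, its plasma membrane relative, rose by 0.73 (SE 0.18, adjusted p = 0.0182), a call lost without the pre-DC DMSO array or either immature DC array. The sodium-coupled carriers Slc28a2b and Slc28a2 were detected in pre-DC alone, at 6.66 and 6.34 and at 5.92 and 5.78, at least 2.08-fold and 1.33-fold above immature DC. They entered the set through the pre-DC arrays, so no p-value is given. These are near-identical neighbouring genes on chromosome 2, so their probes may not separate them. None of the 4 was called on maturation (limma, 2 of 4 with an unadjusted p under 0.05), where their differences ran from -0.50 to -0.08. At that step 21.6% of all genes were called and 37.3% had an unadjusted p under 0.05.

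Among 14 listed genes for nucleoside salvage and breakdown, 12 were tested, with 2 higher and 5 lower in immature DC and 2 higher and 2 lower in mature DC. At these steps 51% and 21.6% of all genes were called. Ada, the adenosine deaminase, read 8.16 and 7.91 in pre-DC and 5.09 and 5.59 in immature DC, a difference of -2.70. It was detected on 3 arrays and could pass the filter only with the pre-DC arrays, so no p-value is given. Upp1, which splits uridine, fell by 2.20 (SE 0.14, adjusted p = 0.000326) and then rose by 0.81 (SE 0.14, adjusted p = 0.0155). Nt5e, the ectoenzyme that makes adenosine, likewise fell by 1.89 (SE 0.14, adjusted p = 0.000426) and rose by 1.01 (SE 0.14, adjusted p = 0.00821). Tk1, the thymidine kinase of dividing cells, fell at both steps, by 1.06 (SE 0.19, adjusted p = 0.00677) and by 2.22 (SE 0.19, adjusted p = 0.0025). Samhd1, which degrades deoxynucleotides, rose by 0.94 (SE 0.14, adjusted p = 0.00304).

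Mitochondrial carriers of the Slc25 family were the most numerous class, with 30 members, and 21 of them were not called at the first step. The 5 that rose and 4 that fell amount to 30%, where 51% of all genes were called, and on maturation 3 rose and none fell (10% of the class, where 21.6% of all genes were called). Slc25a37, mitoferrin-1, which brings iron into mitochondria, read 8.15 and 8.23 in pre-DC, 7.83 and 7.76 in immature DC and 9.36 and 8.96 in mature DC. It rose on maturation by 1.36 (SE 0.16, adjusted p = 0.00499), and by 0.62 with the mean of all its probes. Slc25a28, mitoferrin-2, was called at neither step. Slc25a33 and Slc25a36, carriers of pyrimidine nucleotides, went opposite ways at the first step, with -0.93 (SE 0.14, adjusted p = 0.00322) and 0.78 (SE 0.13, adjusted p = 0.00539). Slc25a33 then rose by 0.91 (SE 0.14, adjusted p = 0.0102), a call lost without either immature DC array or the mature DC DMSO array.

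Slc25a1, the citrate exporter that supplies carbon for fatty acid synthesis, read 9.15 and 9.15 in pre-DC, 10.33 and 10.16 in immature DC and 10.51 and 10.30 in mature DC. It rose by 1.09 (SE 0.13, adjusted p = 0.00158) into the immature stage. Slc25a12, a carrier of aspartate and glutamate, fell by 0.70 (SE 0.12, adjusted p = 0.00547). Slc25a39, which is needed for glutathione import, rose by 0.57 (SE 0.12, adjusted p = 0.0119), and Slc25a35, an orphan carrier, by 1.21 (SE 0.13, adjusted p = 0.00115). Slc25a15, the ornithine carrier, rose by 0.48 (SE 0.13, adjusted p = 0.0253) and by 0.69 (SE 0.13, adjusted p = 0.0188), although another detected probe gave -0.08 at the first step. The carriers of the main energy substrates, Slc25a5 (ADP and ATP) and Slc25a3 (phosphate), were called at neither step, with differences between -0.30 and 0.05.

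Of 13 listed calcium uniporter and mitochondrial import genes, 8 were tested, none higher and 3 lower in immature DC, and none was called on maturation (limma, 2 of 8 with an unadjusted p under 0.05). The shares of all genes called were 51% and 21.6%, and 37.3% had an unadjusted p under 0.05 on maturation. Mcu, the pore of the uniporter, read 7.98 and 7.64 in pre-DC and was below background on the other 4 arrays, at least 5.16-fold lower in immature DC, and it too passed the detection filter through pre-DC alone. Slc8b1, the sodium and calcium exchanger through which calcium leaves mitochondria, read 10.57 and 10.44 in pre-DC, 9.88 and 9.33 in immature DC and 10.47 and 10.02 in mature DC. It fell by 0.90 (SE 0.15, adjusted p = 0.0052) and rose by 0.64 (SE 0.15, adjusted p = 0.0363). The fall was lost without the immature DC SB202190 array. The rise was lost without any single array of its step, without the treatment term (adjusted p = 0.102) and without the detection filter (adjusted p = 0.0571).

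Nucleotide sugar carriers of the Slc35 family feed glycosylation in the Golgi and endoplasmic reticulum. In immature DC 2 of 16 rose and 7 fell, with a median log2 difference of -0.26, and on maturation none rose and 4 fell, with a median of -0.19. The calls are 56.3% and 25% of the class, against 51% and 21.6% of all genes. Slc35c2, which bears on the fucosylation of Notch, read 10.12 and 10.16, then 9.64 and 9.46, then 8.51 and 7.93. It fell at both steps, by 0.59 (SE 0.18, adjusted p = 0.0372) and by 1.33 (SE 0.18, adjusted p = 0.00732). Slc35c1, the GDP-fucose carrier required for selectin ligands, fell by 0.67 (SE 0.14, adjusted p = 0.011) at the first step. Slc35b1, which carries ATP into the endoplasmic reticulum, fell by 0.63 (SE 0.13, adjusted p = 0.0102) and by 0.50 (SE 0.13, adjusted p = 0.0443). Slc35f6 read 5.48 and 5.31, then 6.30 and 6.27, then 5.45 and 5.40, with differences of 0.89 (SE 0.13, adjusted p = 0.0027) and -0.86 (SE 0.13, adjusted p = 0.00915). That second call was lost without any single array of the step. Among the 7 sugar carriers, 3 rose into the immature stage, none fell, and none was called on maturation (limma, 2 of 7 with an unadjusted p under 0.05, as had 37.3% of all genes). The 3 made up 42.9% of the class, against 51% of all genes. They were Slc2a8, an intracellular glucose transporter (1.32, SE 0.12, adjusted p = 0.000778), Slc50a1 (0.75, SE 0.12, adjusted p = 0.00468) and Slc37a2, a sugar phosphate carrier of macrophages (0.61, SE 0.14, adjusted p = 0.0141). Other detected probes of Slc2a8 gave 0.80 and 0.38.

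Carriers of vitamins, choline and lipids numbered 11, with 6 higher and 3 lower in immature DC and 2 higher and 2 lower in mature DC. That is 81.8% and 36.4% of the class, where 51% and 21.6% of all genes were called. Slc27a3, an acyl-CoA synthetase of the fatty acid transport family, read 7.40 and 6.37 in pre-DC, 10.58 and 11.14 in immature DC and 10.77 and 11.41 in mature DC. It had the largest rise of any member, 3.98 (SE 0.41, adjusted p = 0.00104), and gave 0.23 (SE 0.41, adjusted p = 0.73) on maturation. The rise was 3.16 without the pre-DC SB202190 array and 4.79 without the pre-DC DMSO array. Slc27a1, which takes up long-chain fatty acids, rose from 6.40 and 5.78 to 8.24 and 8.32 (2.19, SE 0.19, adjusted p = 0.000667), whereas Slc27a4 of the same family fell by 1.09 (SE 0.18, adjusted p = 0.00497). The later rise of Slc27a4 by 0.71 (SE 0.18, adjusted p = 0.0448) was lost without any single array of the step. It was also lost without background correction (adjusted p = 0.0555), with the authors' processed values (adjusted p = 0.0509) and without the detection filter (adjusted p = 0.0706).

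Slc46a3, a proton-coupled lysosomal carrier, read 9.01 and 9.48 in pre-DC, 10.16 and 11 in immature DC and 8.26 and 8.61 in mature DC. Both immature DC arrays were above the other 4, with differences of 1.34 (SE 0.16, adjusted p = 0.00173) and -2.15 (SE 0.16, adjusted p = 0.00197). Slc19a1, the reduced folate carrier, read 9.0 and 8.91, then 7.43 and 7.32, then 6.56 and 6.55. It fell at both steps, by 1.58 (SE 0.12, adjusted p = 0.000475) and 0.82 (SE 0.12, adjusted p = 0.0101), the first being -0.79 with the mean of all probes. Of the choline carriers, Slc44a1 rose by 1.87 (SE 0.15, adjusted p = 0.000492), with 1.50 and 0.66 from its other detected probes, and Slc44a2 fell by 1.02 (SE 0.15, adjusted p = 0.00322). Slc23a2, which takes up ascorbate, rose at both steps, by 0.80 (SE 0.13, adjusted p = 0.00453) and 0.54 (SE 0.13, adjusted p = 0.0359), and Slc52a3, which takes up riboflavin, rose by 0.99 (SE 0.17, adjusted p = 0.00587).

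Carriers of organic ions and monocarboxylates numbered 15, with 5 higher and 4 lower in immature DC and 2 higher and 3 lower in mature DC. They amount to 60% and 33.3% of the class, against 51% and 21.6% of all genes. Slc22a23 was below background in pre-DC, at 5.32 and 4.80, and read 8.18 and 9.14 in immature DC and 8.74 and 9.93 in mature DC. The rise was at least 9.33-fold (adjusted p = 0.00135). The fitted difference was 3.59 on the log2 scale, and 1.85 with the mean of all probes. Slc22a18, an orphan of the same family, rose by 2.11 (SE 0.15, adjusted p = 0.000391) or, with the mean of all probes, 1.08, and Slc17a5, which exports sialic acid from lysosomes, by 1.25 (SE 0.17, adjusted p = 0.00228). The neighbours Slc22a5, Slc22a21 and Slc22a4 on chromosome 11 belong to the carnitine and ergothioneine carriers. Slc22a5 (0.86, SE 0.13, adjusted p = 0.00312) and Slc22a21 (at least 1.32-fold, adjusted p = 0.00858) rose into the immature stage, although another probe of Slc22a5 gave -0.10. Slc22a4, which carries ergothioneine, rose on maturation (0.84, SE 0.13, adjusted p = 0.0116).

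Slc17a9, which loads ATP into secretory vesicles, read 8.47 and 8.49 in pre-DC, 6.71 and 6.31 in immature DC and 6.04 and 5.68 in mature DC. It fell by 1.97 (SE 0.16, adjusted p = 0.000491) and 0.65 (SE 0.16, adjusted p = 0.0355). Slc16a6 fell from 7.87 and 7.86 to 6.22 and 5.93 (-1.79, SE 0.15, adjusted p = 0.000533). Slc16a10, which carries aromatic amino acids and thyroid hormone, read 7.14 and 7.07, then 6.10 and 5.62, then 7.29 and 6.45. It fell by 1.25 (SE 0.20, adjusted p = 0.00439) and then rose by 1.02 (SE 0.20, adjusted p = 0.0217), which was lost with the mean of all its probes (adjusted p = 0.0844), without the treatment term (adjusted p = 0.0539) and without either immature DC array or the mature DC DMSO array. Slc13a2, a dicarboxylate carrier, was detected at 6.49 and 5.93 in immature DC and fell by at least 1.63-fold to below background in mature DC (adjusted p = 0.0099), a call lost without the immature DC DMSO array or either mature DC array.

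Carriers of ions and acid equivalents numbered 19, with 6 higher and 3 lower in immature DC and 1 higher and 3 lower in mature DC. The shares called were 47.4% and 21.1%, near the 51% and 21.6% of all genes. Slc4a8 read 6.09 and 5.99 in pre-DC, 8.21 and 9.22 in immature DC and 8.80 and 9.12 in mature DC, a rise of 2.68 (SE 0.26, adjusted p = 0.000902) that was 1.69 with the mean of all probes. Slc8a1, the sodium and calcium exchanger of the plasma membrane, rose by 1.42 (SE 0.18, adjusted p = 0.00187), and another detected probe gave 0.27. Slc24a3, an exchanger that also uses potassium, fell from 7.42 and 7.77 to 5.63 and 6.06 (-1.75, SE 0.12, adjusted p = 0.000381). Slc9a9, the sodium and proton exchanger of endosomes, was above background in immature DC alone, at 5.96 and 6.23. That was at least 1.58-fold above pre-DC and at least 1.51-fold above mature DC, and the gene entered the set through these 2 arrays. Slc14a1, a urea carrier and the single member outside these classes, was detected on both pre-DC arrays and on 1 immature DC array. It fell by 0.61 at the first step. It could pass the filter only with the pre-DC arrays, where it was high, so no p-value is given.

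Among 8 listed genes that escort or regulate transporters, 3 were tested. Unc93b1, which moves nucleic acid receptors to endosomes, rose by 1.02 (SE 0.14, adjusted p = 0.00228) into the immature stage. Bsg, the partner of lactate carriers, rose by 1.06 (SE 0.21, adjusted p = 0.0226) on maturation, and Emb was called at neither step (-0.04 and -0.34). Slc9a3r1, also on the list, is counted among the members and was called at neither step.

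The comparison the study was built for sets SB202190 against DMSO. Across the 3 stages, 0 of 154 members and 0% of all genes tested passed an adjusted p of 0.05 in limma, with a smallest adjusted p among members of 0.446. At an unadjusted p under 0.05 there were 17 members, and 855 of all genes (9.27%). The median difference was -0.05 over the members and 0.01 over all genes. Of the members, 53 were positive and 101 negative, and of all 9221 genes 4748 were positive and 4473 negative. Members with the same sign in all 3 stage pairs numbered 20 upwards (13%, against 17% of all genes) and 27 downwards (17.5%, against 15.1%). Without either pre-DC array, 1 member passed in each direction, where 0.206% of all genes passed as higher and 0.239% as lower. Slc22a23 was higher by 1.08 (SE 0.16, adjusted p = 0.0431). Slc35a5, an orphan of the nucleotide sugar family, was below background on both SB202190 arrays left in that fit, so its fitted size is not a measured one, and it was lower by at least 1.36-fold (adjusted p = 0.0434). Leaving out one or the other pre-DC array gives the same fit, which then rests on the immature and mature pairs alone. Over all 3 stages, another detected probe of Slc35a5 gave -0.12.

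The 8 members with the steadiest higher values and the 8 with the steadiest lower values are given as values, since none was called. Slc46a3 was higher with SB202190 by 0.47 in pre-DC, 0.85 in immature DC and 0.34 in mature DC, and Slc24a3 by 0.35 and 0.43 in the first 2 of these stages. Both mature DC arrays were below background for Slc24a3, as they were for Slc32a1, so their places in this order rest partly on unmeasured values. The smallest of the 3 differences lay between 0.13 and 0.21 for the other 6, which were Slc12a2, a sodium, potassium and chloride cotransporter, Slc38a2, a glutamine carrier, Slc25a10, a dicarboxylate carrier, Slc22a5, Slc25a35 and Slc25a12. On the lower side, Slc11a1 gave -0.26, -0.29 and -0.30, Slc6a13 gave -0.28, -0.41 and -0.61, its neighbour Slc6a12 gave -0.24, -0.35 and -0.52, and Slc6a4 gave -0.23, -0.29 and -0.45. Slc35a5 gave -0.21 in pre-DC, and was below background with SB202190 at the later stages, lower by at least 1.55-fold in immature DC and 1.19-fold in mature DC. Slc32a1, a vesicular GABA carrier, Slc22a4 and Slc12a1 completed the list. Over the 3 stages, another detected probe gave 0.06 for Slc6a4 and -0.01 for Slc12a2, so their direction depends on the probe. Another probe of Slc35a5 gave -0.12. The other detected probes of Slc11a1, Slc38a2, Slc22a5 and Slc25a12 kept the sign. Slc40a1 differed little between the treatments (-0.02, SE 0.11).

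**Figure D4:**
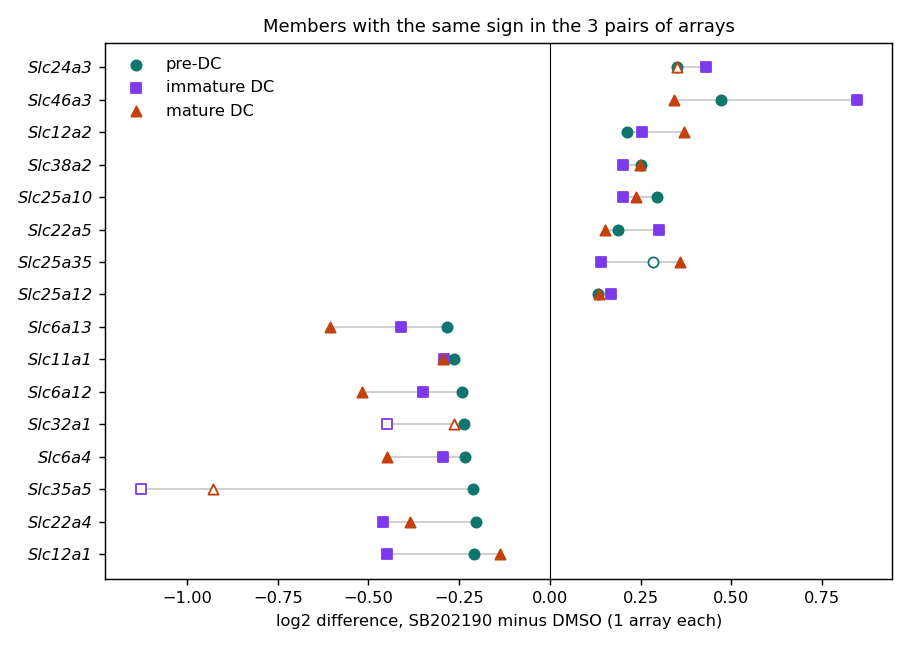
SB202190 minus DMSO on the log2 scale for the 16 members with the steadiest differences, 3 points per gene for the pre-DC, immature DC and mature DC pairs. Each point compares 1 array with 1 array, and open points mark pairs in which at least 1 array was below background. All 3 points of a gene lie on the same side of 0, which is how the genes were chosen.

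Within a stage each treatment had 1 array, so a difference there has no replicate check and no test. In pre-DC, none of 142 members detected on either array was at least 2-fold higher with SB202190 and 1 was lower (0.127% and 0.428% of all genes counted the same way): Slc27a3, at 6.37 against 7.40, or 2.05-fold. In immature DC, of 146 members, Slc4a8 was higher (9.22 against 8.21) and Slc35a5 lower, from 6.09 to below background and so by at least 1.55-fold (0.558% and 0.501% of all genes). In mature DC, of 141 members, Slc22a23 was higher (9.93 against 8.74, 2.29-fold), as was Slc25a29, a carrier of basic amino acids (7.19 against 5.60). Slc16a9, a carnitine carrier, was lower there, from 5.94 to below background, by at least 1.29-fold (0.774% and 0.797% of all genes). With 1 or 2 members in each count, these shares rest on single genes.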

How the data were processed

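Each of the 6 samples was measured once on a single-colour Illumina bead array. The authors deposited a table of non-normalized intensity values with a detection p-value for each of 45281 probes and array, as the file headers name them. They also deposited processed intensity values on a linear scale, with a lowest value of -51.14 and column medians between 7.854 and 7.891. No source used here gives their scaling or centring. They were tried as an alternative.

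Intensities were background-corrected with limma 3.58.1 in R 4.3.3 (normexp fitted from the detection p-values, offset of 16), quantile normalized between arrays and log2-transformed. Platform annotation gave 1 symbol for 34885 probes, several for 18 and none for 10378. An additive limma model of stage and treatment (2 residual and 3.74 prior degrees of freedom) was fitted to all 9221 genes detected at a p-value under 0.01 on at least 2 arrays, with Benjamini-Hochberg adjustment over all of them and a threshold of 0.05. An interaction could not be fitted. The standard errors (SE) come from this model. The fits were also run on simulated data with independent noise and a known difference added to some genes. That checked the computation only and gives no support to the calls. Where all arrays of a group were below background, a fold is a bound against the lowest detected signal, or the probe's own where higher. Where a gene had several probes the brightest stood for it. Of the other detected probes of called members, 3 of 46 had the opposite sign at the first step and 0 of 18 at the second. All 154 members matched RefSeq's gene table (GRCm38.p6).

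The members, substrate classes (assigned by family number), partner lists and markers were chosen with earlier results of these data known. The members named are the up to 10 highest and 10 lowest called at each step, the 8 steadiest in each direction for SB202190, those at least 2-fold different within a stage, and others where their class is described. The number of arrays limits the precision. Alternatives covered background correction, offset, scaling, the deposited processed values, the detection filter, the probe rule, moderation, the block and each array left out.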

Additional observations from a re-analysis of the deposited data

Results flagged for a closer look

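Slc27a3 went opposite ways with SB202190 at different stages. It was lower by 1.03 on the log2 scale in pre-DC (-1.03, 6.37 against 7.40) and higher by 0.64 in mature DC (11.41 against 10.77), with 0.55 in immature DC. Each value compares 1 array with 1 array. The difference between the stages was not tested, since an interaction cannot be fitted with 1 array per stage and treatment.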

How the results depend on the processing

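Across the other processing settings, the counts of members called at each step stayed within 1.5 times of those reported, and each of the 57 step differences and 16 SB202190 differences recomputed (those of the members named by rule and some others, not every value in the text) kept its sign. With 1 array left out, the first step gave 27 to 46 members higher and 21 to 36 lower, the second 5 to 25 higher and 5 to 28 lower, and SB202190 against DMSO 0 to 1 in each direction. The lowest first-step counts came without the immature DC SB202190 array. Of the 57 step differences, 17 lost their call in at least 1 fit with an array left out, where fewer arrays estimate the spread, and 6 (Slc15a3, Slc16a10, Slc27a4, Slc31a2, Slc66a2 and Slc8b1) under at least 1 other setting. Sizes changed by over 1.5-fold without background correction for 17 first-step and 6 second-step differences. The members counted as transporters by name alone, an alternative added after seeing the data, gave 44 higher and 37 lower at the first step and 19 and 22 at the second.

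The 2-fold counts within a stage moved with the setting, and the cause was not tested. In pre-DC the higher count was 1 without a detection filter, and the lower count was 0 without background correction, with an offset of 50 and with the authors' processed values. In immature DC the higher count was 0 without background correction, at an offset of 50 and with probes averaged. The lower count there was 0 under those same 3 settings and among genes detected on all 6 arrays, and 2 with the authors' processed values. In mature DC the higher count was 1 with probes averaged or without background correction, and 0 among genes detected on all 6 arrays. The lower count there was 0 among genes detected on all 6 arrays, with probes averaged, without background correction and at an offset of 50.

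Some class medians changed sign with the setting, several of them near 0. The 4 nucleoside carriers had a first-step median of -0.22. It became 0.07 without background correction, 0.02 at an offset of 50 and 0.98 for the 2 detected on all 6 arrays. Metal and haem carriers had a median of -0.16 on maturation, and 0.03 without the mature DC SB202190 array. With 75th percentile scaling, organic ion carriers gave -0.01 at the first step and amino acid carriers 0.01 at the second. The median of all genes moved by at most 0.02 under any setting. No paired analysis was possible because each combination of stage and treatment held 1 array, so no replicate number is shared beyond the block already in the model. Low signal limits the dimmest members: 6 of those called at the first step and 4 at the second were detected on at most 2 arrays. Among all genes the same held for 269 of 4705 called at the first step and 132 of 1990 at the second.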
